A study of Bos taurus with 2 samples.

Results

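SRY, HSFY2, RBMY and ZNF280BY are Y chromosome genes known for their roles in the testis, and their CpG methylation was read here in DNA of cattle lung. The 4 genes were taken by name and coordinates from the 235 protein-coding genes annotated on the Y chromosome of the ARS-UCD2.0 assembly. Every CpG inside a gene or within 5 kb of either end was kept, which gave 574 CpGs of the 975164 on the chromosome. All 574 were covered by at least 10 PacBio reads, the minimum used throughout. A CpG is a cytosine followed by a guanine, the site at which mammalian DNA is methylated, and its methylation level is the percentage of molecules that carry the mark.

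The series holds 1 PacBio HiFi library and 1 Oxford Nanopore (ONT) library, both labelled as lung and with no treatment given. The study describes the chromosome as the Wagyu haplotype of a male F1 cross of a Wagyu sire and a Charolais dam taken as a fetus, and its reporting form says that the methylation data of both platforms came from the same samples. The libraries are therefore not separate animals, and a value seen on both platforms was not seen in another animal. With 1 library per platform there was no replicate and no test across samples, so each mean is given with its SD over CpGs, which describes variation along the DNA and is no error between animals. The lung label could not be checked against marker genes, because only methylation of the Y chromosome was analysed.

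SRY encodes the HMG-box transcription factor that starts testis development in the fetal gonad. HSFY genes encode proteins related to heat shock transcription factors, RBMY encodes an RNA-binding protein of male germ cells, and ZNF280BY is a zinc finger gene that was copied from an autosome and amplified on the Y chromosome of bovids. The paper reports ZNF280B transcripts in every tissue it examined, lung of the F1 offspring among them, though not from every copy. Transcripts were not analysed here, so whether ZNF280BY itself was transcribed in this lung is not known. Methylation of the CpGs around a start site is generally associated with a silent promoter, and genes used only in germ cells are often methylated in body tissues, whereas promoters of broadly used genes are usually CpG-rich and unmethylated.

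The 4 genes lie on the part of the chromosome that is specific to males, in the long-arm sequence beyond 24 Mb, where gene families are present in many copies. SRY lies at chrY:58122906-58123595 on the minus strand and spans 690 bp. HSFY2 lies at chrY:33183479-33185329 on the plus strand and spans 1851 bp. RBMY lies at chrY:59144453-59157810 on the plus strand and spans 13358 bp. ZNF280BY lies at chrY:28864373-28875413 on the minus strand and spans 11041 bp. SRY had 62 CpGs with its flanks, HSFY2 89, RBMY 236 and ZNF280BY 187. Beyond 24 Mb the 312237 CpGs with enough reads averaged 51.1% on PacBio and 43.2% on ONT, at 8.8 CpGs per kb, and this is the background against which the genes were read.

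Each gene was divided along its own strand into the 1 kb before the annotated start (near upstream), the gene, the 1 kb after its end (near downstream) and the stretches from 1 to 5 kb outside both ends (outer flanks). A start is that of the annotated gene model and was not mapped by transcript ends here. Exons, introns and UTRs were not separated. PacBio depth was 50 to 67 reads per CpG at SRY, 53 to 66 at HSFY2, 24 to 54 at RBMY and 36 to 53 at ZNF280BY, and no depth was analysed for ONT. The precision of a single CpG at such depth is modest. At 55 molecules a share near 37.1%, rounded to a whole read count, has a 95% Wilson interval of 24.9% to 49.6%. The value 37.1% is the near-upstream mean of SRY and not the level of a particular CpG. The Wilson intervals cover counting error only, and CpGs of a gene are read from the same molecules.

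**Figure D1:**
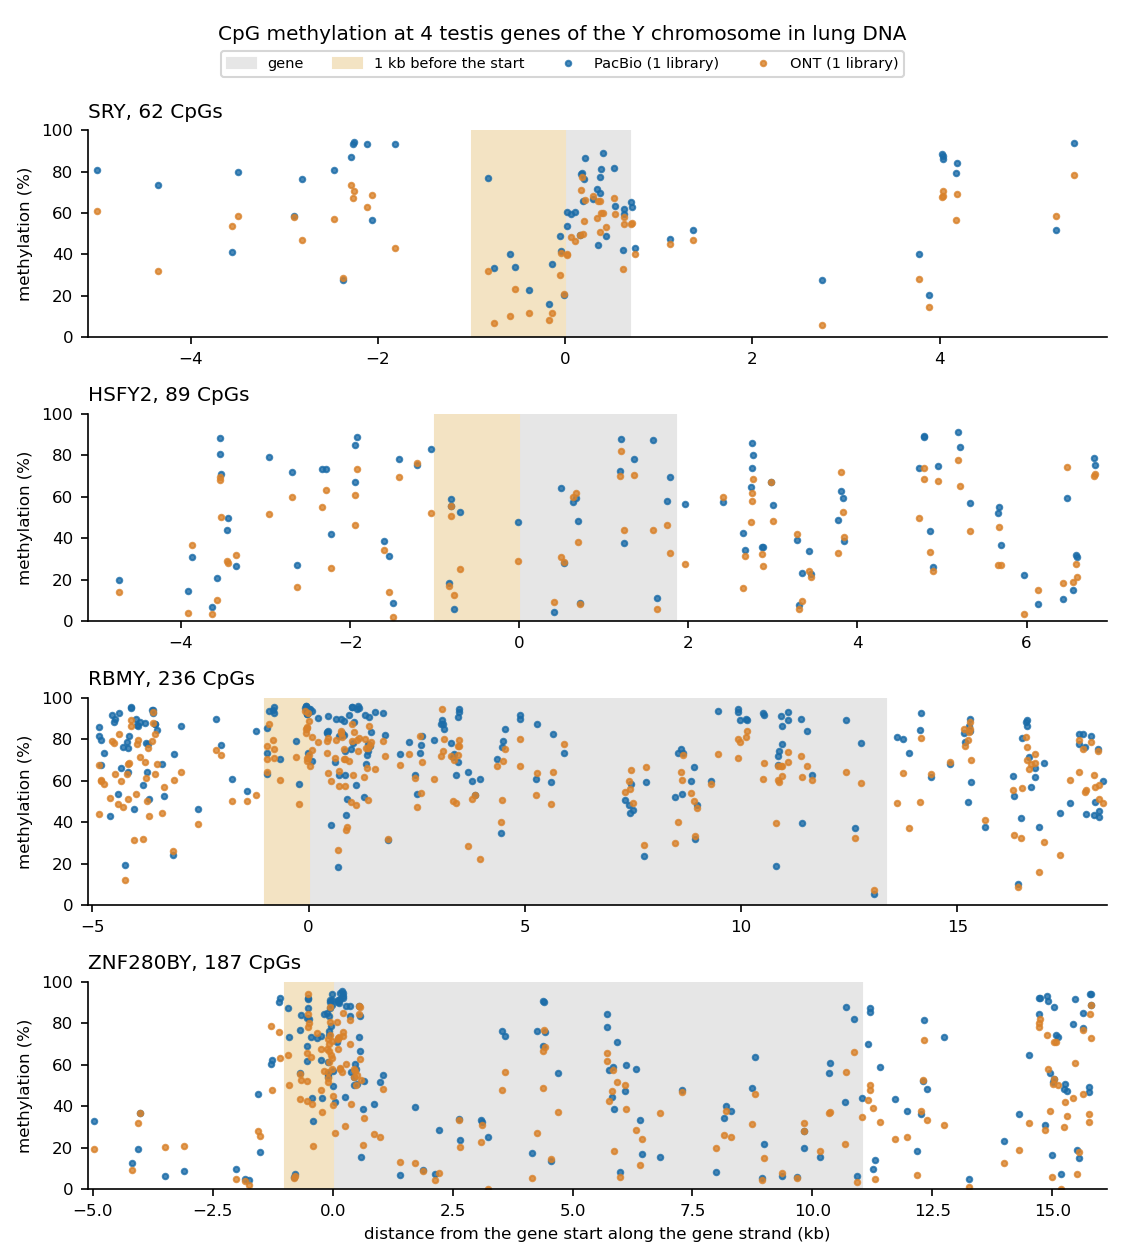
Methylation level (%) of each CpG against distance from the gene start along the gene strand (kb), for PacBio and ONT with 1 library each. The grey band is the gene and the tan band the 1 kb before its start: at SRY 9 of 10 PacBio values in the tan band are below 50%, whereas at RBMY all 20 are above 50%.

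Of the 5 zones of SRY, the one directly before the gene was the lowest. The 10 CpGs of the near-upstream window averaged 37.1% ± 17.3 on PacBio and 19.7% ± 11.6 on ONT (SD over CpGs), against 70.6% ± 23.8 and 54.2% ± 19.3 for the 24 CpGs of the outer flanks. The near-upstream level was therefore 33.6 points below the outer flanks on PacBio and 34.5 points below them on ONT. The gene itself, 23 CpGs packed at 33.3 per kb, was at 66.5% ± 13.4 and 56.5% ± 10.9. By means this was 4.19 points below the outer flanks on PacBio (-4.19) and 2.33 points above them on ONT, but by medians over CpGs it was -14.4 points on PacBio (65.8% against 80.2%) and -1.16 points on ONT.

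The individual CpGs show how the level varied around the start. Counted from the gene start, the CpG at -827 bp was at 76.9% on PacBio and 32.2% on ONT. The next 6 CpGs, at -765, -586, -541, -386, -168 and -144 bp, ranged from 16.2% to 40.4% on PacBio and from 7.04% to 23.1% on ONT. The lowest on PacBio, at -168 bp, had 8 of 54 reads estimated as modified, with a Wilson interval of 7.70% to 26.6%. The last 3 CpGs before the start, at -58, -49 and -14 bp, were at 48.7%, 41.8% and 20.3% on PacBio and at 30.3%, 40.7% and 20.9% on ONT. The CpGs on either side of the start, 31 bp apart, went from 20.3% at -14 bp (interval 11.6% to 32.4%) to 53.8% at 17 bp (interval 39.8% to 65.3%), intervals that do not overlap. On ONT the same pair of CpGs stood at 20.9% and 40.4%, and the CpG at -49 bp was already at the level of the one at 17 bp. On PacBio, too, the intervals of the CpGs at -58 bp (36.4% to 61.9%) and -49 bp (29.7% to 54.97%) overlapped that of the CpG at 17 bp, so neither platform sets the change at the start itself. No CpG inside the gene was below 42.4% on PacBio or below 33.1% on ONT, and the highest PacBio value, 88.8%, was at 403 bp.

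Downstream of SRY the 5 CpGs of the near window were at 54.1% ± 9.6 on PacBio and 48.4% ± 6.44 on ONT. Farther out, CpGs were few, and the 3 that lie between 1.5 and 4 kb after the start were low as well. They were at 2744 bp with 27.5% on PacBio and 5.77% on ONT, at 3783 bp with 40.3% and 27.95%, and at 3888 bp with 20.5% and 14.9%. The next 3 CpGs, from 4024 to 4040 bp, were at 86.1% to 88.6% on PacBio. From 5 to 100 kb on both sides of SRY, 1245 CpGs averaged 73.4% and 61.1%, so the near-upstream CpGs were low against the wider surroundings too.

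The difference before the start was smaller at HSFY2. Its 6 near-upstream CpGs averaged 39.9% ± 22.1 on PacBio and 31.7% ± 17.7 on ONT, its 15 gene CpGs 51.5% ± 27.8 and 42.3% ± 23.7, and the 60 CpGs of its outer flanks 50.3% ± 25.9 and 40.8% ± 23.1. The near-upstream window differed from the outer flanks by -10.4 points on PacBio and by -9.13 points on ONT, less than the SD over CpGs within any zone of the gene. The alternatives moved it both ways, from -13.0 to 0.95 points on PacBio and from -11.8 to -6.52 points on ONT. Medians over CpGs in place of means gave 0.95 points by PacBio and -11.5 by ONT, and a window of 500 bp, which holds 1 CpG, gave -2.58 and -11.6 points. The surroundings from 5 to 100 kb, at 49.1% and 43.1% over 1624 CpGs, were at the level of the gene. CpGs were sparse here, with 3 of them within 500 bp of the start on either side.

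What HSFY2 showed instead was a mixture of low and high CpGs at close range. Inside the gene the CpG at 417 bp was at 4.4% on PacBio, with 2 of 63 reads estimated as modified, and at 9.27% on ONT. The CpGs at 715 and 1635 bp were at 8.7% and 11.2% on PacBio. Between these low sites the CpG at 1199 bp reached 87.7% on PacBio and 82% on ONT. Before the start, the CpG at -770 bp was at 6% with 3 of 63 reads estimated as modified, whereas its neighbours at -803 and -810 bp were at 58.8% and 55.6%. Such alternation means that a mean over HSFY2 describes few of its CpGs.

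RBMY was the most methylated of the 4 genes. Its 20 near-upstream CpGs averaged 86.3% ± 12.01 on PacBio and 75.8% ± 11.1 on ONT, and none was below 58.3% on PacBio or 48.8% on ONT. Of the 20 values, 14 were above 80% on PacBio and 7 on ONT. The outer flanks were at 69.8% ± 19.3 and 61.4% ± 18.4 over 86 CpGs, so the start side was 16.5 points higher on PacBio and 14.4 points higher on ONT.

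The start of RBMY lies inside the high stretch. Within 500 bp on either side of it, 21 CpGs averaged 87.6% ± 10.1 on PacBio and 77.1% ± 10.5 on ONT. In the second 500 bp of the gene the 17 CpGs were lower, at 69.7% and 63.2%, with the CpG at 670 bp at 18.2% and 26.6%. The first 1 kb of the gene was at 75.7% and 67.8% over 26 CpGs, and the interior, without the first and last 1 kb, was at 73.6% and 64.3% over 95 CpGs. The whole gene, at 73.3% ± 19.4 and 64.3% ± 15.9, was above its surroundings from 5 to 100 kb, which were at 65.1% and 56.4%. Downstream these surroundings hold further RBMY copies, from LOC132344528 to LOC132344531, so RBMY was compared in part with its own copies. PacBio depth in the surroundings ran from 10 to 560 reads.

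The 3′ side of RBMY was measured less well. The last 1 kb of the gene held 4 CpGs, one of them, at 13071 bp, at 5.4% on PacBio and 7.29% on ONT and the others between 37.1% and 89.2% on PacBio. PacBio depth was 43 to 47 reads in the upstream outer flank and 24 to 31 reads in the downstream outer flank. The gap between platforms also varied here, from -26.3 points over the 5 near-downstream CpGs to -2.74 points over the 38 CpGs of the downstream outer flank, and the part of depth in this was not tested. The upstream outer flank of RBMY also holds an annotated EI24 pseudogene at chrY:59141089-59142041, which ends 2412 bp before RBMY.

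ZNF280BY carried a dense cluster of CpGs over its start, and that cluster was methylated. Its near-upstream window held 37 CpGs, at 37 per kb, and averaged 70.6% ± 21.9 on PacBio and 59.1% ± 19.8 on ONT. Within 500 bp on either side of the start there were 47 CpGs at 73.7% ± 18.3 and 61.2% ± 15.4, and none was below 20% on either platform. The outer flanks averaged 51.6% ± 30.7 and 41.2% ± 26.2 over 53 CpGs, so the near-upstream window was 19.0 points higher on PacBio and 17.9 points higher on ONT.

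Methylation of ZNF280BY was lower on both sides of this cluster. Upstream, the 15 CpGs of the outer flank averaged 33.6% ± 30.3 and 31.3% ± 25.04, and from -2000 to -1501 bp 4 CpGs averaged 18.3% and 14.9%. At the upstream edge of the near window the CpGs at -811 and -790 bp were at 5.6% and 7.3% on PacBio, while the 4 CpGs from -1500 to -1001 bp, farther out, were at 76.2%. Downstream of the start, the first 1 kb of the gene was at 69.4% ± 21.9 and 58.4% ± 19.6 over 33 CpGs. The interior of the gene was at 41.1% ± 25.6 and 31.6% ± 20.1 over 48 CpGs, 13 of which were below 20% on PacBio. Over the whole gene the level was 52.4% ± 27.8 and 41.9% ± 23.7, within 1 point of the outer flanks on both platforms, which hides the contrast between start and interior.

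**Figure D2:**
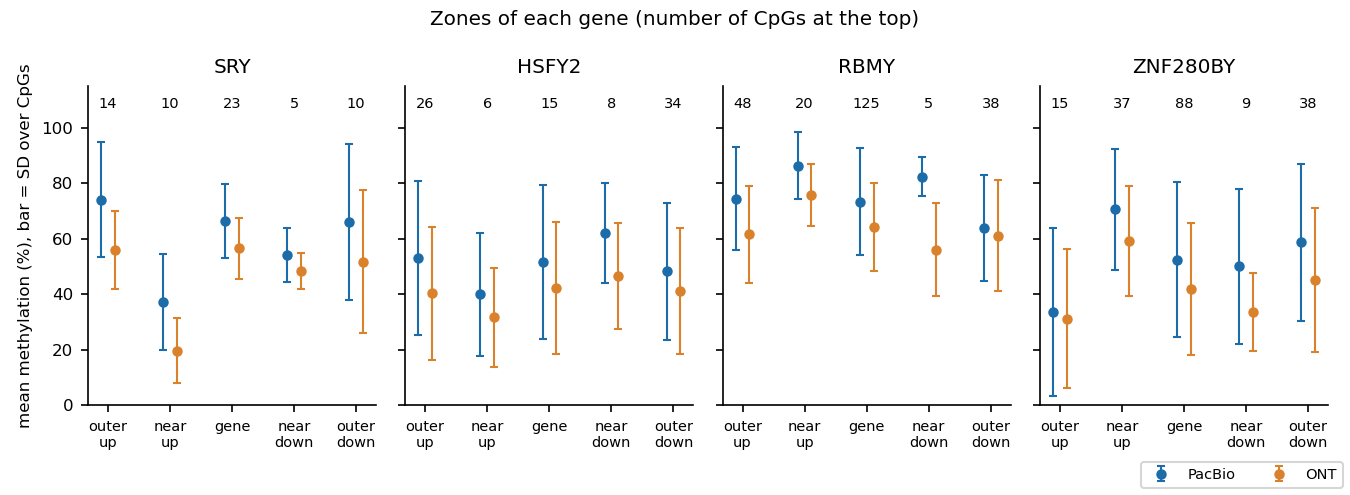
Mean methylation (%) of the 5 zones of each gene on PacBio and ONT, 1 library each, with bars for the SD over CpGs and the number of CpGs at the top. SRY dips in the near-upstream zone, where RBMY and ZNF280BY have their highest means, and HSFY2 has a shallow dip inside its SD.

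The near-upstream windows of the 4 genes thus came in the order SRY, HSFY2, ZNF280BY and RBMY on both platforms, from 37.1% to 86.3% on PacBio and from 19.7% to 75.8% on ONT. SRY and HSFY2, neighbours in this order, differed by 2.86 points on PacBio, well inside the SD over CpGs of either, and by 12.01 points on ONT. ZNF280BY lay 30.6 points above HSFY2 on PacBio and 27.4 points on ONT, and RBMY a further 15.7 and 16.7 points above ZNF280BY, the last gap being inside the SD over CpGs of ZNF280BY. In gene level the order was HSFY2, ZNF280BY, SRY and RBMY on PacBio, with 51.5%, 52.4%, 66.5% and 73.3%, and on ONT HSFY2 and ZNF280BY changed places at 42.3% and 41.9%.

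Against all genes measured the same way, the step at SRY was among the larger ones. Of the 223 protein-coding genes of the male-specific region, 193 had a strand and at least 5 CpGs in both the near-upstream window and the outer flanks. Many of the 193 are copies of a few families, and 126 lie outside the HSFY, RBMY and ZNF280B families. The backgrounds and ranks are therefore not over independent genes, and each family's own copies are part of them. A near-upstream level at least 10 points below the outer flanks was found in 48 of the 193 on PacBio, a background of 24.9%, and in 34 on ONT, a background of 17.6%. These counts depended on the settings, from 20 to 48 on PacBio and from 17 to 48 on ONT. SRY met this rule on both platforms. HSFY2 lay at the limit, past it on PacBio and short of it on ONT by means, and the other way round by medians. Ranked by that difference, SRY was 8th from the lowest on PacBio and 7th on ONT. Ranked by the near-upstream level itself, SRY was 42nd on PacBio and 9th on ONT.

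A near-upstream level below 20% was rarer, at 10 genes or 5.18% on PacBio and 9 genes or 4.66% on ONT, with 6 to 16 genes on either platform over the alternatives. SRY passed this limit on ONT, at 19.7%, narrowly, since the lower of the 2 ONT rows alone gave 20.6% and a window of 500 bp 20.7%. None of the 4 genes passed it on PacBio. The opposite pattern, a near-upstream level at least 10 points above the outer flanks, occurred in 55 genes or 28.5% on PacBio and 49 genes or 25.4% on ONT, and RBMY and ZNF280BY showed it on both platforms. RBMY ranked 189th of 193 by near-upstream level on PacBio and 190th on ONT, but by the difference from the outer flanks 155th and 154th. For the gene against its outer flanks, 8.29% of genes were at least 10 points lower and 24.4% at least 10 points higher on PacBio, and 5.7% and 14.5% on ONT, and none of the 4 genes was among them by means. By medians over CpGs the SRY gene, at -14.4 points, passed the limit for lower genes on PacBio.

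The X-degenerate genes, single-copy relatives of X-linked genes that are mostly used across tissues, give a measure of a low start in this lung DNA. Of 15 names on this list, 8 genes were found in the table and 7 had enough CpGs. Their median near-upstream level was 19.99% on PacBio and 18.5% on ONT, against 70.6% and 60.6% over the 193 genes, and 4 of the 7 were below 20% on both platforms. Their median difference from the outer flanks came to -40.5 points on PacBio, and to -46.2 points with ONT. The list was wide, from -85.9 to 6.28 points on PacBio and from -79.0 to 11.01 points on ONT, and SRY's differences of -33.6 and -34.5 points fell between these ends. KDM6A and EIF2S3, which are X-degenerate too, were not on the list and were added after the values were seen. By PacBio near-upstream level they ranked 2nd and 1st from the lowest of the 193 genes. The RPL23A gene LOC132344467, which lies within the span of SHROOM2, ranked 183rd on PacBio and 192nd on ONT and was not added. With them the medians of the 9 genes were 4.33% on PacBio and 2.299% on ONT, 6 of the 9 were below 20% on each platform, and the median difference was -63.2 points on PacBio, with -55.8 points from ONT. The near-upstream level of SRY, 37.1% on PacBio and 19.7% on ONT, was above the median of either list.

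**Figure D3:**
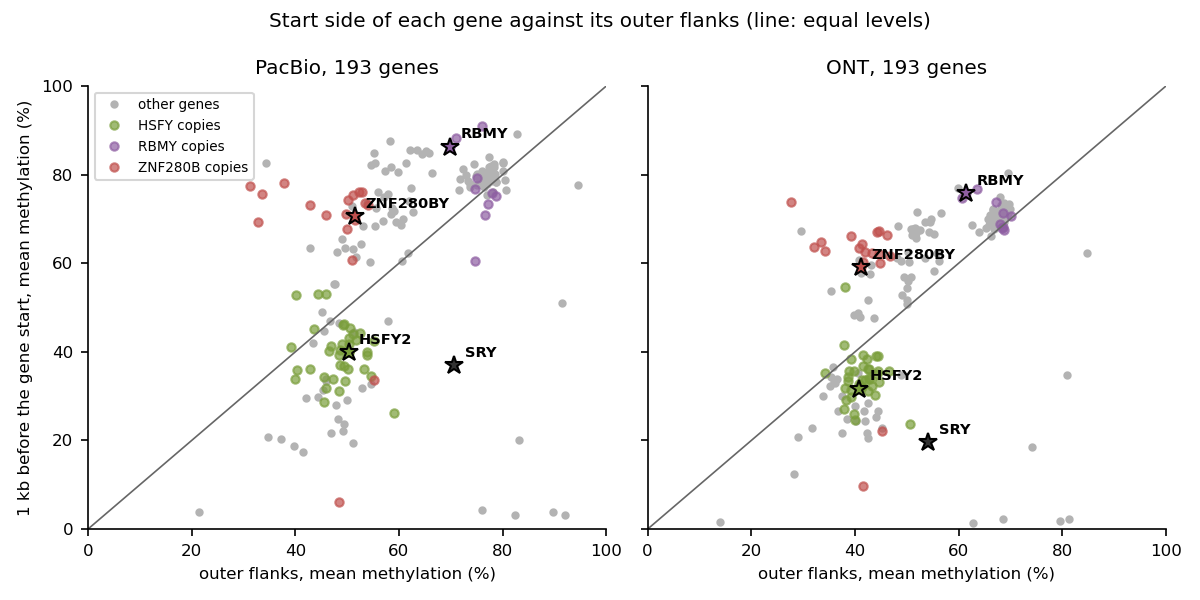
Mean methylation (%) of the 1 kb before the start against that of the outer flanks for 193 genes of the male-specific region, on PacBio and ONT, 1 library each. Stars are the named genes, colours their families, and the line marks equal levels. SRY falls far below the line at 37.1% against 70.6% on PacBio, HSFY copies gather just below it, and most ZNF280B copies lie above it.

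HSFY2, RBMY and ZNF280BY each have further copies on the chromosome, and SRY is the single copy of its family in the table. The copies share long stretches of nearly identical sequence, so a read may be placed on the wrong copy and values of single copies are uncertain to that extent. The annotation lists 39 HSFY, 11 RBMY and 22 ZNF280B protein-coding copies, the named genes included. Genes annotated as HSFY and as HSFY2 were counted together as HSFY copies.

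Of the 39 HSFY copies, 38 had enough near-upstream CpGs. They averaged 39.7% ± 6.21 on PacBio and 34.1% ± 5.3 on ONT (SD over copies), and HSFY2 ranked 18th from the lowest on PacBio and 10th on ONT. The lowest of the other copies on PacBio was LOC100126816, at 26.2% on PacBio and 23.6% on ONT over 5 CpGs, and the highest was LOC132344540, at 53.0% and 39.2% over 10 CpGs. In 33 copies on PacBio and 35 on ONT the near-upstream level was below the copy's own outer flanks. The share of all 193 genes under that rule was not counted, though their median difference, given below, was positive. In 17 and 9 of the 38 copies the near-upstream level was at least 10 points below, against the backgrounds of 24.9% and 17.6% for this stricter rule, which include these copies. By medians over CpGs the ONT count was 21, and with at least 10 CpGs required a single copy was left to count. The median difference over the family was -8.71 points on PacBio, with -8.12 points from ONT, against 2.58 and 2.81 points over the 193 genes. HSFY2's shallow dip was therefore near the middle of this joint family. LOC100126816, which is annotated as HSFY2 like the named gene but lies at chrY:8684919-8686815, ranked 9th from the lowest of the 193 by this difference on both platforms. In gene level HSFY2 was high among the copies, ranking 30th of 36 on PacBio and 29th on ONT.

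The RBMY copies fell into gene models of different length. In 3 copies, RBMY among them, the model is longer than 13 kb, and in the other 8 it is under 11 kb and starts 2410 to 2416 bp later when the copies are lined up by their ends. The near-upstream window of the 3 long models averaged 88.5% ± 2.36 on PacBio and 75.8% ± 1.02 on ONT, and that of the 7 measured short models 73.1% ± 6.14 and 69.7% ± 2.34. These windows lie at different places of the copied unit. Read at the start of the long model in every unit, the window was at 76.4% to 90.8% on PacBio in 10 units and at 73.8% to 78.3% on ONT in 11 units. RBMY, at 86.3% and 75.8%, was near the median of 86.4% on PacBio.

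The lowest near-upstream value on PacBio among the other RBMY copies was LOC132344528, at 60.5% with a median depth of 16 reads, and on ONT the same window was at 70.6%. The highest was LOC132344531, at 91.0% and 76.8%, with 69.5 reads. PacBio depth varied widely among these copies, and 1 of the 11 copies, the second after RBMY, had no PacBio CpG with enough reads in its near-upstream window. A stretch of 193 CpGs with ONT rows and no PacBio rows lay at chrY:59184679-59198232, starting 26869 bp after the end of RBMY. All RBMY copies measured were nevertheless high: the lowest gene level was 68.7% on PacBio and 59.9% on ONT.

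The ZNF280B copies were close to each other where the gene models were alike. The 16 copies of 10 to 12 kb had 31 to 37 CpGs in the near-upstream window, and their levels were 72.2% ± 4.22 on PacBio and 63.4% ± 2.54 on ONT (SD over copies). ZNF280BY was close to that mean on PacBio, at 70.6%, and was the lowest of the 16 on ONT, at 59.1%. Its gene level was also the lowest of the 16 on ONT, at 41.9% against a mean of 46.1% ± 1.53, and on PacBio, at 52.4% against 53.3% ± 2.59, it was not.

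Over all measured ZNF280B copies, the near-upstream level was at least 10 points above the outer flanks in 16 of 19 on PacBio and 17 of 19 on ONT, where the background was 28.5% and 25.4%. The highest of the other copies on PacBio was LOC132344703, at 78.1% and 64.9%. The lowest was LOC104974629, at 6.1% and 9.68% over 5 CpGs, a model of 33610 bp whose window lacks the dense CpG cluster seen before the 10 to 12 kb copies.

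Because copies were made from a common ancestor, the same CpG can be followed from copy to copy. Each copy was slid along the named gene, and the position where most CpGs fell on the same base was kept if at least 10 CpGs matched. This placed 34 of 38 HSFY copies beside HSFY2 with 10 to 29 matched CpGs, 9 of 10 RBMY copies beside RBMY with 37 to 63, and 15 of 21 ZNF280B copies beside ZNF280BY with 27 to 61. The position was not equally clear in all copies: in 12 of the 34 HSFY copies, 4 of the 9 RBMY copies and 3 of the 15 ZNF280B copies the next best position matched more than 50% as many CpGs, and in the closest case, the HSFY copy LOC132344551, it matched 13 against 14, so which CpG is the same one is uncertain there. Without these copies, left out after values were seen, 24 of 29 PacBio values of HSFY2, 38 of 63 of RBMY and 57 of 69 of ZNF280BY lay inside the range of the rest, beside the counts over all placed copies given next. How far reads placed on another copy bring these values together was not tested.

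The level of a CpG was shared between copies more closely than between CpGs of a gene. At HSFY2, from 1 kb before the start to 1 kb after the end, 29 CpGs had a counterpart in at least 2 copies. The SD over copies at a given CpG had a median of 9.5 points on PacBio, whereas the medians of the 29 CpGs ranged from 5.7% to 85.05% with an SD of 23.7 points. On ONT the corresponding values were 7.58 and 19.96 points. The value in HSFY2 followed the copies' median with Pearson's r of 0.91 on PacBio and 0.96 on ONT over the 29 CpGs, a description of CpGs of 1 library that share reads and sequence context.

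The low CpGs of HSFY2 were low in its copies as well. At 417 bp, where HSFY2 was at 4.4%, 11 copies ranged from 4% to 9.2% on PacBio and from 4.37% to 14.6% on ONT. At 1635 bp, with HSFY2 at 11.2%, 34 copies ranged from 4.7% to 23.7% with a median of 9.7%. At 1199 bp, with HSFY2 at 87.7%, 32 copies ranged from 63.1% to 92.4% with a median of 85.05%. The alternation of low and high CpGs in HSFY2 was thus present in the family's copies and on both platforms. On PacBio 24 of the 29 HSFY2 values lay inside the range of the copies, and on ONT all 29 did. The exceptions on PacBio included the CpG at 1582 bp, at 87.4% against a highest copy of 79.7%, and there ONT gave 43.8%, inside the range.

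RBMY was compared with its copies over 67 CpGs from 1 kb before to 2 kb after the start, where 43 of its PacBio values and 47 of its ONT values lay inside the copies' range. A range of few copies is narrow, and 28 of the CpGs were held by 2 or 3 copies, of which 12 on PacBio and 11 on ONT were inside. At the 39 CpGs with 7 to 9 copies, 31 and 36 were inside. The SD over copies had a median of 5.02 points on PacBio and 4.95 on ONT, against an SD of 14.7 and 12.7 points over CpGs. The dip at 670 bp, 18.2% in RBMY, was at 18.5% to 35% in 9 copies, the lowest median of the stretch at 27.2%. RBMY was below all copies at 10 CpGs and above all of them at 14 on PacBio, with 8 and 12 on ONT, and below the copies' median at 28 and 33 of the 67. It was above all 9 at 710 bp, with 81.4% against 51% to 78.8% on PacBio, though below all 9 there on ONT, with 57.7% against 58.7% to 72.4%. It was lower than its copies at -211 bp, with 58.3% against 64.8% to 86.2% in 3 copies on PacBio, though its ONT level of 48.8% was inside the copies' range, and at -956 bp, with 63.4% against 85.6% to 94.5% on PacBio and 64.1% against 71.3% to 78.1% on ONT.

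ZNF280BY was compared over 69 CpGs in the same span, with 59 PacBio values and 42 ONT values inside the copies' range, which came from 2 copies at 6 of the CpGs and from 4 to 15 at the rest. Its SD over copies had a median of 8.83 points on PacBio and 6.69 on ONT, against 23.04 and 20.03 points over CpGs. The pair of low CpGs at -811 and -790 bp, 5.6% and 7.3% in ZNF280BY, was low in each copy that had them, at 5.5% to 7.3% in 5 copies and 6.5% to 20.7% in 4. On ONT ZNF280BY was below the copies' median at 47 of 69 CpGs, with means of 58.1% and 62.2%, and on PacBio at 37 of 69, with means of 70.0% and 70.2%.

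**Figure D4:**
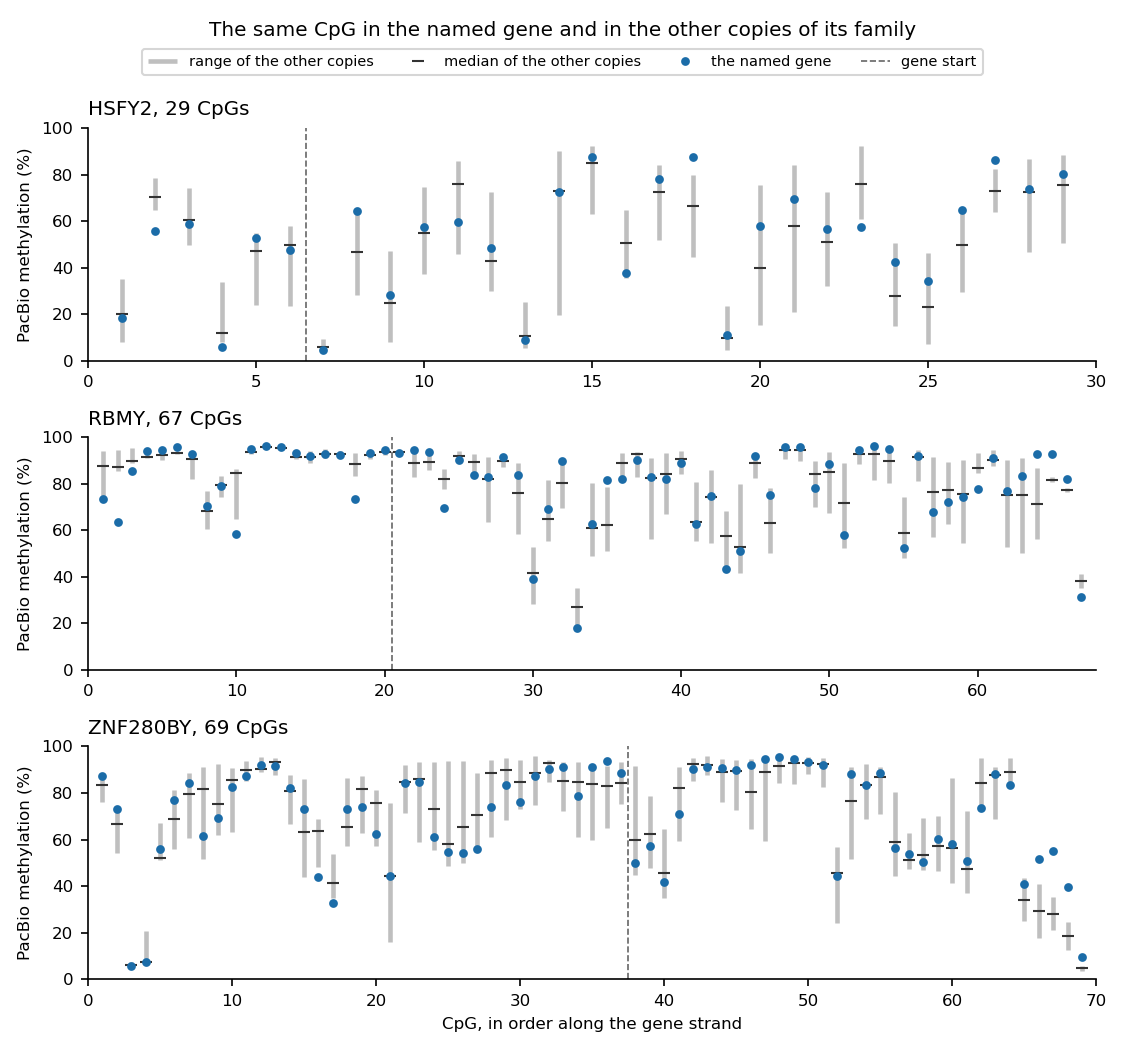
PacBio methylation (%) of each CpG in order along the gene strand, for HSFY2 (29 CpGs), RBMY (67) and ZNF280BY (69). Blue points are the named gene, grey bars and black ticks the range and median of the other copies with the same CpG, and the dashed line the gene start. Of the blue points, 24, 43 and 59 lie inside the grey bars at HSFY2, RBMY and ZNF280BY.

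Spacing between CpGs also separated levels, most of all at ZNF280BY. There the 136 CpGs with another CpG within 50 bp averaged 63.9% on PacBio and the 51 without one 33.6%. The corresponding values were 76.3% and 63.4% at RBMY, 64.8% and 56.7% at SRY and 52.0% and 48.2% at HSFY2. Beyond 24 Mb as a whole, CpGs with a neighbour within 50 bp averaged 58.7% and those without 36.2%, so the direction at the 4 genes was that of their surroundings, and the difference at HSFY2 was small beside its SD over CpGs.

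Among 198 genes of the whole chromosome with a strand and at least 5 CpGs in all 5 zones, 186 of them in the male-specific region and 12 in the pseudoautosomal region, those most like each named gene were sought by the root mean square (RMS) difference over 10 values, the 5 zones on both platforms. For HSFY2 the nearest were the HSFY copies LOC132344686, LOC132344719 and LOC132344708, at 3.67, 3.87 and 4.49 points. For RBMY they were the RBMY copies LOC132344537, LOC132344531 and LOC132344535, at 3.28, 3.96 and 5.81 points. For ZNF280BY they were the ZNF280B copies LOC132344712, LOC132344681 and LOC132344700, at 4.996, 5.35 and 5.76 points. SRY had no profile as close: its nearest were the HSFY copies LOC132344719 and LOC132344686 and the TSPY1 copy LOC132344710, at 11.1, 11.4 and 11.98 points, where the median distance of all genes from SRY was 22.1 points. The medians for the other genes were 18.1 points for HSFY2, 21.0 for RBMY and 19.8 for ZNF280BY.

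ONT gave lower levels than PacBio at most CpGs of each gene. Over the gene with its flanks the mean difference, ONT minus PacBio, was -13.3 points at SRY (a difference of medians of -8.32 points), where ONT was lower at 54 of 62 CpGs, and -11.0 points at ZNF280BY, where it was lower at 155 of 187. At HSFY2 it was -9.90 points with 71 of 89 lower, and at RBMY -9.33 points with 185 of 236 lower. The long arm beyond 24 Mb had a difference of -7.94 points and the male-specific region as a whole -13.5 points. Across CpGs the platforms followed each other with Pearson's r of 0.80 at SRY, 0.90 at HSFY2, 0.78 at RBMY and 0.88 at ZNF280BY. The contrasts of SRY, RBMY and ZNF280BY between start and outer flanks were of the same sign and similar size on both platforms, whereas levels as such depended on the platform.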

How the data were processed

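PacBio HiFi reads were scored for methylation with Primrose v1.3.0, aligned with pbmm2 v1.9.0 and summarised with pb-CpG-tools v2.3.2. The paper's methods name these tools, but of their versions give only that of pb-CpG-tools. The authors deposited for each CpG a modification percent from the tool's model, the count of covering reads, the estimated counts of modified and unmodified reads, and their percent. ONT reads were called with Dorado, aligned with Winnowmap v2.03 and summarised with modbam2bed v0.6.3 at thresholds of 20% and 80%, and the authors deposited a percent for each strand row with no read count. Reads of near-identical copies can be misplaced by alignment, and the platforms use different models, so levels are not on an identical scale.

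PacBio positions were mirrored and ONT positions shifted to the assembly's direction, the 2 ONT rows of a CpG were averaged, and CpGs with at least 10 PacBio reads were kept. CpGs of 21 plus-strand and 18 minus-strand HSFY copies fell on the same distance from the start most often with no further shift (4230 pairs). Copies of ZNF280B on opposite strands did so at a shift of -4 bp (1535 pairs, against 1429 with none), so this check does not fix the placement to the base there. Gene coordinates came from RefSeq, and strand and family from the study's annotation sheet, which covered 214 of 235 genes. Samples were grouped by platform, with 1 library each. Zone means with SD over CpGs, Wilson intervals, counts and ranks were computed with Python 3.11.15, numpy 2.4.6, pandas 2.3.3 and scipy 1.17.1, and figures with matplotlib 3.10.9. The zone and alignment code was tested on simulated data. Genes named were the 4 genes, the copy of each family with the lowest and the highest PacBio near-upstream level, and the 3 genes nearest in profile. The members, zones and lists were chosen with earlier results of these data known, and the counts of levels above the flanks, the gene-level counts and the matching of CpGs between copies were added after values were seen. Alternatives covered the read minimum, the summary, the columns used and the windows.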

Additional observations from a re-analysis of the deposited data

Results flagged for a closer look

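Over the SRY gene the mean level lay 4.19 points below that of the outer flanks by PacBio (-4.19) and 2.33 points above it by ONT, so the platforms differed in direction by means. By medians over CpGs both were below, by PacBio at -14.4 points and by ONT at -1.16, and with flanks to 25 kb at -7.92 and -3.83 points, so the difference in direction depends on the summary and the flanks. The difference was not tested, since each platform had 1 library, and both differences of means are smaller than the SD over CpGs of the gene.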

How the results depend on the processing

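No paired analysis was possible because the platforms hold 1 library each, so no replicate numbers pair samples beyond the CpGs themselves. The 36 levels and differences of the 4 genes were recomputed 300 times in all over the alternative settings. Each moved by less than a limit, the Wilson half-width of a single CpG at the PacBio depth, which stood in for ONT, whose depth was not analysed. For differences the half-widths of both parts were combined. The limit is wide for means over many CpGs: within it the HSFY2 near-upstream difference on PacBio went from -10.4 to 0.95 points. Of the 140 recomputed differences from the outer flanks, 129 kept their sign. The 11 others were the SRY gene on ONT (-1.16 by medians and -3.83 with flanks to 25 kb), the HSFY2 near-upstream window on PacBio by medians, and the HSFY2 and ZNF280BY genes, whose differences were within 5 points of 0 in each of these settings. The PacBio difference of the SRY gene, -4.19 points, became -14.4 by medians. The near-upstream differences of SRY ranged from -45.4 to -32.8 points on PacBio, those of RBMY from 15.3 to 19.2 and those of ZNF280BY from 13.8 to 25.3. Counts of genes depended more on the settings. With medians over CpGs, 16 genes of the male-specific region were below 20% on each platform, of which 2 were HSFY copies on each, and 21 HSFY copies were at least 10 points below their flanks on ONT. Without CpGs with an ONT row at 0, 6 genes were below 20% on PacBio. The count at least 10 points below on PacBio was 28 with a window of 500 bp and 20 with at least 10 CpGs per zone, where ONT gave 17, and fewer genes were tested in both. The lower ONT row alone put 1 HSFY copy below 20%. The ZNF280B counts, 1 below 20% and 2 at least 10 points below the flanks, became 0 on both platforms without CpGs with an ONT row at 0, with the window of 500 bp and with at least 10 CpGs. The HSFY count below the flanks became 0 with at least 10 CpGs, and no HSFY copy could be counted with 500 bp. The RBMY count below the flanks on PacBio, 1 copy, became 0 with at least 20 reads, without CpGs of extreme depth, with 500 bp and with at least 10 CpGs. ONT depth was not analysed, and 1 library per platform gives no spread between animals.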
